A study of Mus musculus with 6 samples.

Results

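Among the genes counted in 6 libraries of mouse CD8+ T cells were 59 genes taken here as oocyte genes, out of 27480 genes in the table. Of these, 20 were chosen by name (Gdf9, Bmp15, Zp1, Zp2, Zp3, Ooep, Padi6, Tle6, Nlrp5, Khdc3, Nlrp14, Nlrp2, H1f8, Dppa3, Npm2, Nobox, Figla, Btg4, Mos and Zar1). The other 39 are all table rows whose names start with Obox, Oog, Omt2, Oosp, Nlrp4, Nlrp9 or Fbxw followed by a number from 13 to 29. These 39 were taken by name pattern alone, so they can include genes that are not particular to oocytes, such as Fbxw17. The choice rested on an earlier look at the same libraries, in which several of these genes stood higher in the vector libraries than in the PTMA libraries. Their difference between the groups is therefore described here and not tested.

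The cells were OT1 CD8+ T cells, killer T cells with a transgenic receptor for an ovalbumin (OVA) peptide, labelled as wild type (WT) in genotype. In 3 libraries they carried an empty overexpression vector (vector 1 to 3). In the other 3 libraries (PTMA 1 to 3) they carried a construct to overexpress PTMA, prothymosin alpha, a small acidic protein of the nucleus. Each had 48 h of OVA peptide stimulation, and poly(A) RNA was sequenced in bulk. The labels do not give the type of vector, or whether the libraries of a group came from separate animals or cultures, so the spread within a group may be technical. Total counts ran from 54989408 to 66767589 per library, at which a count of 0 allows a level of up to 0.0456 to 0.0536 CPM (counts scaled by library size, here with TMM factors). This floor of 3 counts covers counting error only. Ptma itself stood at 848, 783 and 1145 CPM in vector 1 to 3 against 1152, 1346 and 1271 CPM in PTMA 1 to 3, so the lowest PTMA library was just above the highest vector library. All 12 genes of a T cell receptor and CD8 list were abundant, with a summed level of 7780 to 8445 CPM per library.

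An oocyte grows inside a follicle for weeks and stores RNA and protein that the embryo uses before its own genome is active. It secretes the growth factors GDF9 and BMP15 toward the granulosa cells around it, wraps itself in a coat of zona pellucida proteins, and assembles a subcortical maternal complex under its membrane. Transcription factors such as FIGLA, which binds E-boxes in zona gene promoters, and NOBOX, a homeobox protein, are known to drive this programme. The oocyte genes are not known as markers of CD8+ T cells.

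The stretch of DNA just upstream of a gene is where such factors often act. For 45 of the 59 genes, the 250 bases before a RefSeq start on GRCm38.p6 can be read. Some of these starts lie far from the gene start in the table, by 158309 bases for Obox1, 55100 for Btg4 and 16558 for Nlrp9b. The E-box CANNTG was searched on these 250 bases on both strands. So was the NOBOX-type element TAATTA with its variant TAATTG and the related form TAGTTG, while TATAAA was searched on the given strand only. The 6 stretches below are shown because they represent genes that differed widely between the groups (H1f8, Bmp15, Zp3, Fbxw14) and F-box relatives whose groups overlapped (Fbxw24, Fbxw17). In each the RefSeq start lies within 7 bases of the start in the table. They read 5′ to 3′ toward the gene, with E-boxes and NOBOX-type elements in capitals.
H1f8, chr6:115944681-115944930, plus strand: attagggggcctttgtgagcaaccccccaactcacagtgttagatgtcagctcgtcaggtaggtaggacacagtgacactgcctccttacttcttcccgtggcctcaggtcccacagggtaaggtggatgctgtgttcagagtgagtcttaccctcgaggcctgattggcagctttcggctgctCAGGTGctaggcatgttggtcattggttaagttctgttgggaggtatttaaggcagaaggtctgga
Bmp15, chrX:6320725-6320974, minus strand: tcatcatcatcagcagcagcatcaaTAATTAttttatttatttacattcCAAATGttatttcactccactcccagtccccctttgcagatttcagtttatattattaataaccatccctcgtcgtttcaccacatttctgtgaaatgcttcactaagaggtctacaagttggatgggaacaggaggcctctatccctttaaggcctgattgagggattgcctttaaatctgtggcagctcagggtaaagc
Zp3, chr5:135979855-135980104, plus strand: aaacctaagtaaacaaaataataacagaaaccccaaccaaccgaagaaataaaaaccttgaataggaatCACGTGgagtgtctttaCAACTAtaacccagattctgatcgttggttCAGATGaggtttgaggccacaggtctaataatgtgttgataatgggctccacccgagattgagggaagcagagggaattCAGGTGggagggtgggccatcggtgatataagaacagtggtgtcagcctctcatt
Fbxw14, chr9:109287677-109287926, minus strand: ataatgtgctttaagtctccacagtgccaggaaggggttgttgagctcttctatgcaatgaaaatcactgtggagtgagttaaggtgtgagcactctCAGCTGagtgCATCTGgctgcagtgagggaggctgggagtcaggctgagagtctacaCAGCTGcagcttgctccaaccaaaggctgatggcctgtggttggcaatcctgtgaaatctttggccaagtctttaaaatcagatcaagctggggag
Fbxw24, chr9:109626060-109626309, minus strand: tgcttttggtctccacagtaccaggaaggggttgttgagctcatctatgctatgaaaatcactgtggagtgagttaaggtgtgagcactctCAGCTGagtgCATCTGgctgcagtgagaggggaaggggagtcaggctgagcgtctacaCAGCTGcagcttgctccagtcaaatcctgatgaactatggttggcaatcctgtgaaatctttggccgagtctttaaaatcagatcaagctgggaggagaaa
Fbxw17, chr13:50417614-50417863, plus strand: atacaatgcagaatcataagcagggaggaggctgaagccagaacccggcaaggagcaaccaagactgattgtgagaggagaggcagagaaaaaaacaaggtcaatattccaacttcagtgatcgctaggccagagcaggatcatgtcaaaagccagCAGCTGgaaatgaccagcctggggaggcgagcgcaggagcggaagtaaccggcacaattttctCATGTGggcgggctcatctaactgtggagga

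An E-box was found upstream of 42 of the 45 genes (93.3%), against 66.2% of all 32851 RefSeq promoters of the same length. The form CAGCTG, which is also counted in CANNTG, was found upstream of 20 genes (44.4%), against 13% of all promoters. A NOBOX-type element was found upstream of 10 genes (22.2%), against 16.1%, and TATAAA upstream of 3 genes (6.67%), against 7.59%. Where a gene had more than 1 listed start, only the first listed was counted, while the shares of all promoters count every listed start. These promoters held few CpG pairs, with a median of 1 against 6 over all promoters. The genes are not independent here, because many of the F-box promoters are copies of each other. Fbxw14 and Fbxw28 were identical at 96.0% of aligned bases and Fbxw14 and Fbxw24 at 88.0%, against 53.2% for Fbxw14 and Fbxw17. The E-box at 55 bases before the start of Zp3, CAGGTG, is of the class that FIGLA is known to bind. A match of letters shows neither a bound site nor a cause.

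Summed over the 59 genes, vector 1 to 3 held 194, 217 and 192 CPM, against 69.1, 88.7 and 80.4 CPM in PTMA 1 to 3. A single gene, Fbxw17, made up a large and even part of this. Without it the sum was 162, 184 and 156 CPM in the vector libraries, against 35.5, 50.8 and 46.2 CPM in the PTMA libraries, a mean of 167 ± 14.6 against 44.1 ± 7.86 CPM (SD, n = 3 per group), 3.79-fold higher in the vector libraries. The groups lay far apart, and the spread within each was small beside the gap. In bulk RNA, fewer cells that carry these transcripts and less of them per cell cannot be told apart.

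**Figure D1:**
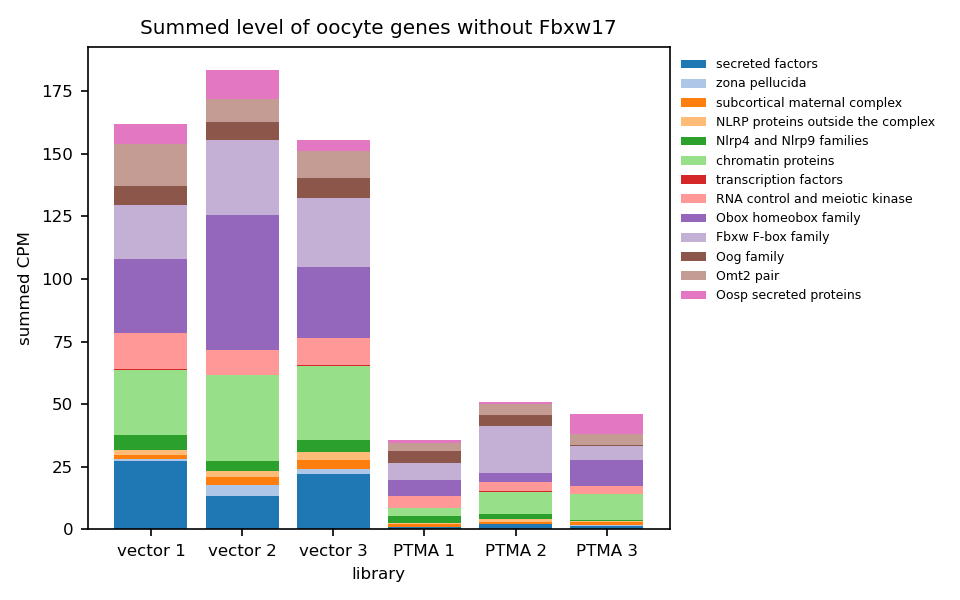
Stacked bars of the summed level (CPM, linear axis from 0) of 58 oocyte genes, without Fbxw17, in each of the 6 libraries, coloured by the role of the gene. The 3 vector bars reach 162, 184 and 156 CPM against 35.5, 50.8 and 46.2 CPM for PTMA, and the blue block of secreted factors is nearly absent from the PTMA bars.

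Counted by gene, 30 of the 59 had all 3 vector libraries above all 3 PTMA libraries, and 0 had the opposite order. Of the 49 that passed the filter on low counts, 28 had the vector libraries above, where 5.38% of all 16592 genes tested did. Of the 49, 40 had a negative log2 fold change (PTMA minus vector), where 53.2% of all genes tested did, and 33 had one of -1 or lower, where 3.07% did. Their median was -1.75, against -0.015 over all genes tested. In the edgeR quasi-likelihood test with Benjamini-Hochberg adjustment over all genes, 1 of the 49, Gdf9, was called, among 2 genes in all (0.0121% of those tested). That call of Gdf9 was lost with no filter, with a replicate block, and without vector 1, PTMA 1 or PTMA 3 (adjusted p by edgeR 0.443, 0.342, 0.156, 0.0617 and 0.124). At an unadjusted p under 0.05, 25 of the 49 were lower, where 2.72% of all genes tested were, and DESeq2 called 15, where it called 0.211% of all genes lower. These contrasts are those on which the genes were chosen, so the shares describe the choice. The 10 genes that did not pass the filter were Figla, Nlrp2, Nlrp4e, Oog2, Obox3, Obox3-ps5, Obox3-ps6, Fbxw13, Fbxw23 and Fbxw26, none with more than 21 counts in a library.

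**Figure D2:**
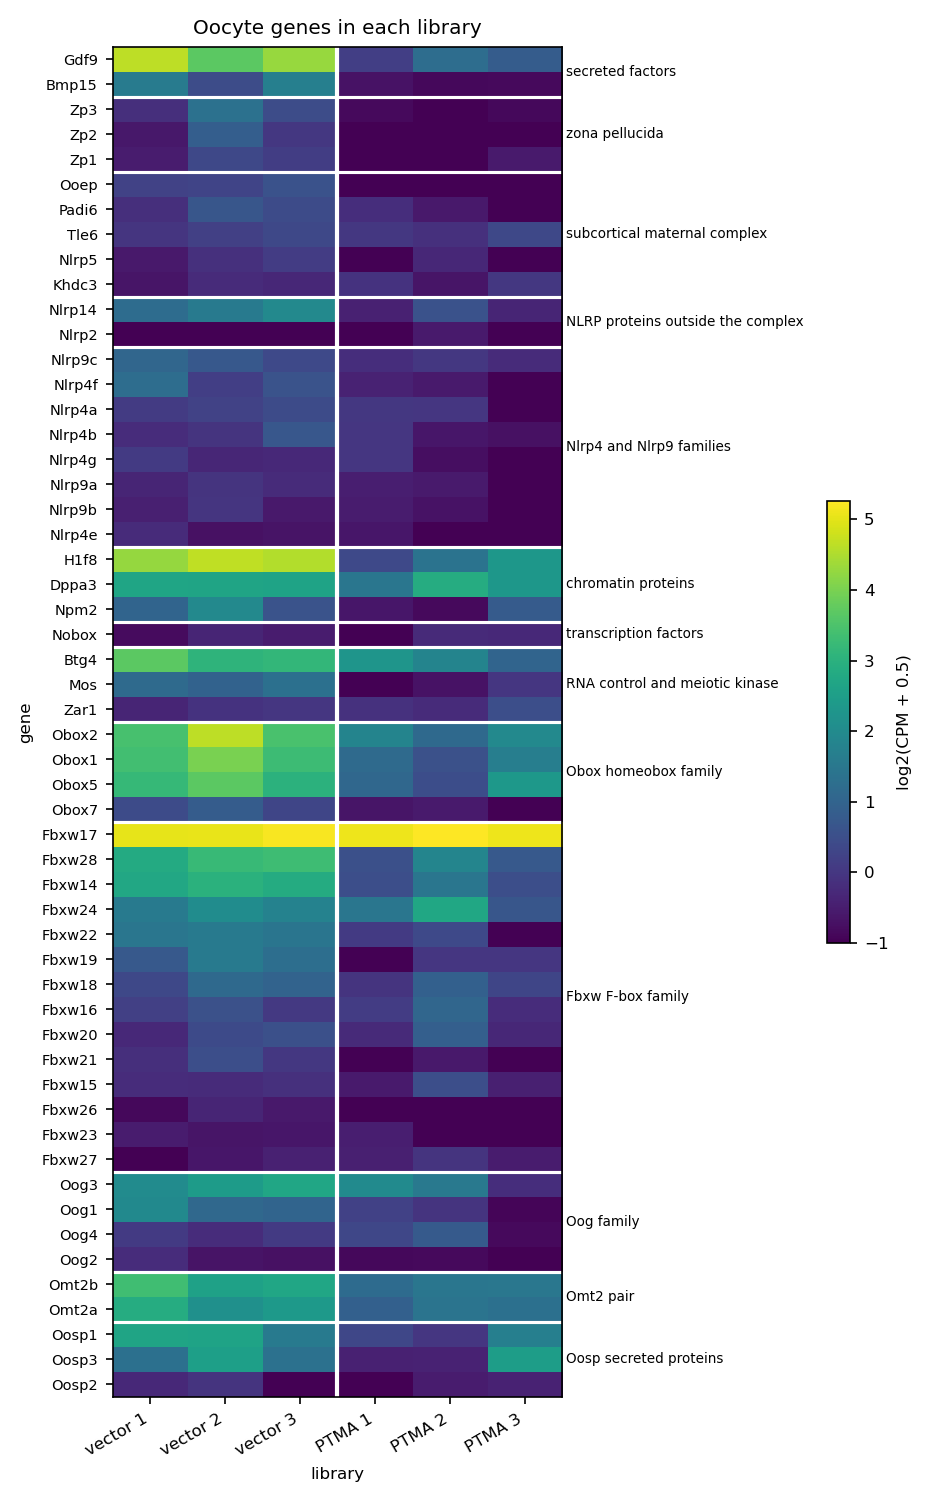
Heat map of the level of each oocyte gene with at least 10 counts in some library (rows, grouped by role) in the 6 libraries (columns), as log2(CPM + 0.5). The vector columns are brighter than the PTMA columns in most rows, whereas Fbxw17 is equally bright in all 6 and Dppa3 is brightest in PTMA 2.

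The secreted factors were far higher in the vector libraries. Gdf9 (ENSMUSG00000018238, chromosome 11, 53431023 to 53436902 on GRCm38), the oocyte growth factor that directs granulosa cells, had 1381, 804 and 1198 counts in vector 1 to 3, against 40, 122 and 84 in PTMA 1 to 3. No PTMA library came near the lowest vector library. The mean level was 18.8 ± 6.12 against 1.25 ± 0.625 CPM (SD, n = 3 per group), 15-fold higher in the vector libraries, with a log2 fold change of -3.90 (SE 0.39). Bmp15 (ENSMUSG00000023279, chromosome X, 6314107 to 6320721), its partner and close relative, had 142, 57 and 171 counts in the vector libraries, against 8, 3 and 4 in the PTMA libraries. At 2.06 ± 1.02 against 0.0766 ± 0.041 CPM (SD, n = 3 per group), its level was 26.9-fold higher in the vector libraries. Both were lowest in vector 2 among the vector libraries.

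The zona genes, which encode the glycoproteins of the egg coat, were rare, with few or 0 counts in the PTMA libraries. Zp3, the glycoprotein whose promoter is printed above, had 22, 131 and 54 counts in the vector libraries, against 4, 0 and 3 in the PTMA libraries. Zp2, a protein to which sperm bind, had 9, 85 and 32 counts in the vector libraries, against 0 in each PTMA library. Its level was at least 14.5-fold higher in the vector libraries, taking 3 counts per library as the most that a count of 0 allows, and at least 7.37-fold higher without vector 2. Zp1, which cross-links the filaments of the coat, had 11, 50 and 37 counts in the vector libraries, against 0, 0 and 12 in the PTMA libraries, so that PTMA 3 reached vector 1 in raw counts but not in CPM (0.183 against 0.196). All 3 zona genes were highest in vector 2, the library in which Gdf9 and Bmp15 were lowest among the vector libraries.

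The subcortical maternal complex, a protein assembly under the egg membrane that early cleavage needs, was split. Ooep, one of its core scaffold proteins, had 38, 47 and 61 counts in the vector libraries, against 0 in each PTMA library, at least 17.4-fold higher in the vector libraries. Padi6, a peptidylarginine deiminase family member of the egg cytoplasm, had 22, 71 and 52 counts against 25, 11 and 0, and its groups were apart by a narrow margin (0.393 CPM in vector 1, 0.385 CPM in PTMA 1). Nlrp5, also called MATER, had 10, 27 and 36 counts against 0, 20 and 0, which overlap. Tle6, another core component, had 27, 41 and 49 counts against 33, 27 and 52, at 0.635 ± 0.154 against 0.571 ± 0.197 CPM (SD, n = 3 per group). Khdc3, an RNA-binding partner of the complex, had 8, 23 and 19 counts against 29, 9 and 34. The same complex thus held a gene with 0 counts in every PTMA library and genes at like levels in both groups, and Khdc3 shares 31.3% of its 75-base transcript windows with Gm20509, so its reads may belong to either.

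The other NLRP genes were not grouped with the complex here, which does not show that their proteins lie outside it. Nlrp14, a maternal factor of the early embryo, had 102, 158 and 208 counts in the vector libraries, against 16, 65 and 19 in the PTMA libraries. The groups did not overlap, and the level was 4.98-fold higher in the vector libraries (9.49-fold without PTMA 2). Nlrp2 had 12 counts in PTMA 2 and 0 elsewhere. The 8 genes of the oocyte-expressed Nlrp4 and Nlrp9 families summed to 5.84, 4.27 and 4.77 CPM in the vector libraries, against 2.71, 1.73 and 0.456 CPM in the PTMA libraries. In 4 of the 8 (Nlrp9c, Nlrp4f, Nlrp4a and Nlrp9a) the vector libraries lay above all PTMA libraries. These 4 were among the 7 tested, and over all genes tested the share was 5.38%. Nlrp4f had 104, 40 and 63 counts against 17, 12 and 0, and Nlrp9c had 90, 75 and 50 against 25, 33 and 23. Of the others that were counted most, Nlrp4b had 21, 30 and 70 counts against 32, 10 and 7, Nlrp4a 32, 44 and 52 against 33, 32 and 0, and Nlrp4g 31, 19 and 20 against 32, 6 and 0. PTMA 1 was the PTMA library in which these families were most abundant.

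The chromatin proteins of the egg were split as well. H1f8 (ENSMUSG00000042279, chromosome 6, 115944938 to 115950231), the oocyte linker histone, had 1053, 1605 and 1423 counts in the vector libraries, against 52, 138 and 296 in the PTMA libraries. At 22.2 ± 3.09 against 2.47 ± 1.88 CPM (SD, n = 3 per group), it was 8.98-fold higher in the vector libraries (15.2-fold without PTMA 3), and per gene length it was the most abundant of the 59 there. Dppa3, also called Stella, which protects maternal DNA methylation in the zygote, had 334, 378 and 356 counts against 145, 452 and 297. It was highest in PTMA 2, and its groups overlapped at 5.85 ± 0.113 against 4.55 ± 2.34 CPM (SD, n = 3 per group). Npm2, a histone chaperone of the egg nucleus, had 86, 216 and 64 counts against 10, 4 and 82, so that PTMA 3 lay above vector 3.

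The transcription factors themselves were close to absent in both groups. Nobox had 4, 18 and 12 counts in the vector libraries, against 0, 22 and 21 in the PTMA libraries, which overlap. Figla had 4 counts in vector 2 and 0 in the other 5 libraries.

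Of the genes that control stored RNA and meiosis, Btg4, an adaptor for the removal of maternal mRNA tails, had 691, 515 and 522 counts in the vector libraries, against 282, 200 and 100 in the PTMA libraries. The groups did not overlap, and the level was 3.22-fold higher in the vector libraries. The row of Btg4 overlaps Layn on the opposite strand, and whether the counting used strand is not given in the sources used here. Mos, the kinase that holds the egg at meiotic arrest, had 98, 94 and 122 counts against 0, 8 and 32, 8.49-fold higher in the vector libraries with no overlap. Without PTMA 3 its ratio was 28.2-fold. Zar1, which binds stored maternal mRNA, had 16, 29 and 31 counts against 28, 23 and 61, with PTMA 3 the highest of all.

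The Obox genes, homeobox factors of the egg and the early embryo that lie together on chromosome 7, summed to 29.7, 53.8 and 28.3 CPM in vector 1 to 3. That is above the F-box genes there once Fbxw17 is set aside (21.5, 30.2 and 27.6 CPM) and below them with it. Obox2 had 576, 1572 and 657 counts in the vector libraries, against 197, 111 and 220 in the PTMA libraries. Obox1 had 554, 1013 and 573 counts against 113, 64 and 177, and Obox5 had 488, 806 and 477 against 107, 59 and 298. Each of these was highest in vector 2 and lowest in PTMA 2, and in none did the groups overlap. Their levels were 5.60-fold, 6.43-fold and 4.08-fold higher in the vector libraries, and that of Obox5 was 7.55-fold higher without PTMA 3. Obox7 had 47, 82 and 46 counts against 9, 12 and 0, which is 8.85-fold higher (13.7-fold without PTMA 2, 5.90-fold without PTMA 3). Obox3 and the pseudogenes Obox3-ps5 and Obox3-ps6 had at most 2 counts in any library. Obox1 and Obox2 share 47.2% and 52.6% of their transcript windows, so their reads cannot be fully assigned to one or the other.

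The F-box genes, whose products are thought to be substrate adaptors of ubiquitin ligases, many of them known mainly from oocytes, were uneven. All except Fbxw17, 14 of 15, lie in a row on chromosome 9, from 109139447 to 109790650, a stretch of 651.2 kb that holds 0 other genes of the table. Fbxw28 had 367, 570 and 584 counts in the vector libraries, against 61, 204 and 77 in the PTMA libraries, and Fbxw14 had 352, 484 and 421 against 60, 148 and 61. Both lay above in all vector libraries, 4.74-fold and 5-fold on the mean, although they share much of their sequence with each other (50.3% and 47.0% of 75-base windows). Fbxw22 had 126, 157 and 136 counts against 35, 53 and 0, 5.09-fold higher in the vector libraries with no overlap. Without PTMA 2 the ratio was 8.50-fold for Fbxw22 and 7.83-fold for Fbxw28. Fbxw24, further along the same row, had 137, 233 and 181 counts against 146, 398 and 73, and its highest library was PTMA 2. The vector libraries lay above in 6 of the 14 (Fbxw21, Fbxw14, Fbxw28, Fbxw22, Fbxw19 and Fbxw26), and Fbxw14, Fbxw28 and Fbxw22 of these are neighbours, as are the overlapping Fbxw23, Fbxw15, Fbxw24 and Fbxw18. Among the 11 of the 14 that were tested they lay above in 5, and over all genes tested the share was 5.38%. In 6 of the 14 (Fbxw13, Fbxw20, Fbxw16, Fbxw15, Fbxw24 and Fbxw27) PTMA 2 was the highest of the 6 libraries. The upstream stretches of Fbxw14 and Fbxw24 hold the same 3 E-boxes in the same order, and the groups overlapped in Fbxw24 only. The part of these E-boxes was not tested, and reads of Fbxw14 may belong to Fbxw28.

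**Figure D3:**
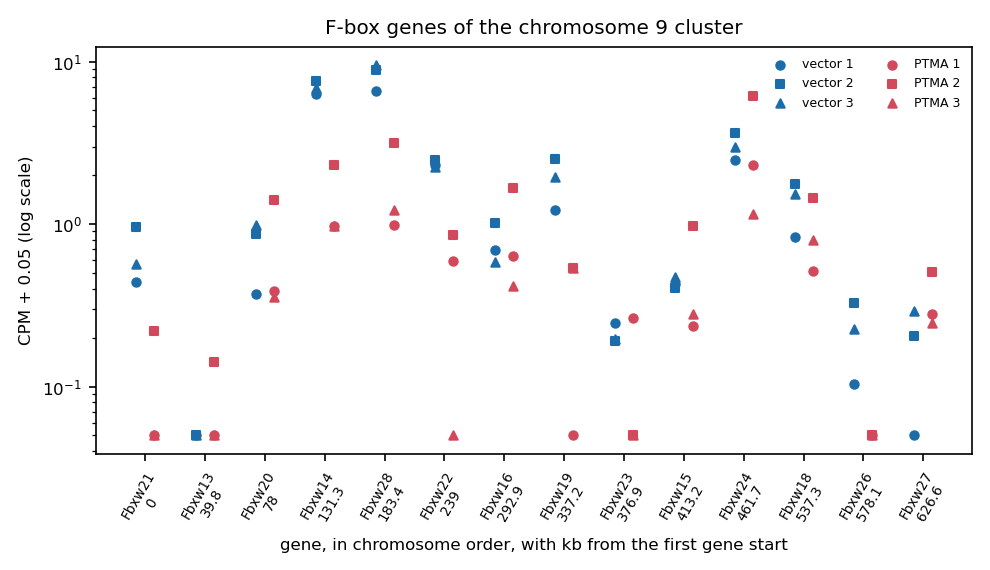
Level of the 14 F-box genes of chromosome 9 in each library (CPM + 0.05, log scale), in chromosome order with the distance from the first gene in kb, blue for vector and red for PTMA, with a symbol for each replicate number. Fbxw14, Fbxw28, Fbxw22 and Fbxw19 have every blue point above every red one, whereas in Fbxw24, Fbxw16 and Fbxw15 the PTMA 2 square is the highest point.

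Fbxw17 (ENSMUSG00000037816, chromosome 13, 50417864 to 50433780) lies outside that row and differed from the other F-box genes in level. It had 1811, 2132 and 2258 counts in the vector libraries, against 2187, 2481 and 2247 in the PTMA libraries. At 33.9 ± 2.17 against 35.3 ± 2.34 CPM (SD, n = 3 per group), its groups overlapped, with a log2 fold change of 0.06 (SE 0.09). It shared no transcript window with another gene, and its upstream stretch held 7 CpG pairs, against 0 for Fbxw14 and 2 for Fbxw24.

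The Omt2 pair, small oocyte-enriched proteins, differed evenly. Omt2b had 545, 356 and 375 counts in the vector libraries, against 115, 146 and 152 in the PTMA libraries, and Omt2a had 387, 255 and 286 against 91, 140 and 131. No PTMA library reached a vector library in either, and the levels were 3.37-fold and 2.79-fold higher in the vector libraries. Omt2b and Omt2a share 29.6% and 31.4% of their transcript windows with each other. Their reads thus cannot be fully assigned to one or the other, and the 2 rows are not independent. The Oog genes, a family of oocyte-expressed leucine-rich repeat proteins, differed less evenly. Oog3 had 199, 317 and 377 counts against 229, 155 and 25, and Oog1 had 191, 109 and 94 against 43, 30 and 2. Oog4 had 31, 24 and 34 counts against 50, 80 and 4, and its groups overlapped. Oog2 had at most 21 counts. In Oog1, 82.8% of the windows are shared with other genes, mostly Gm2042.

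The Oosp genes, which encode oocyte-secreted proteins, followed single libraries. Oosp3 had 110, 342 and 125 counts in the vector libraries, against 16, 17 and 335 in the PTMA libraries. PTMA 3 thus stood close to vector 2 and far above the other PTMA libraries. Oosp1 had 325, 369 and 155 counts against 49, 32 and 182, with PTMA 3 again the highest PTMA library and above vector 3. Oosp2 had 18, 30 and 0 counts against 0, 13 and 17.

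Ranked per gene length on the FPKM scale, the order within the vector libraries was led by H1f8 at 16.6 ± 2.77, then Obox2 at 8.34 ± 4.81, Gdf9 at 8.27 ± 2.52 and Fbxw17 at 7.95 ± 0.39 FPKM (SD, n = 3). H1f8 stood above the next genes, whereas Obox2, Gdf9 and Fbxw17 did not differ beyond their spread. In the PTMA libraries the order was led by Fbxw17 at 8.28 ± 0.48, Dppa3 at 4.58 ± 2.32, Oosp3 at 2.05 ± 3.09 and Fbxw24 at 1.89 ± 1.55 FPKM (SD, n = 3), the last 3 within each other's spread. Gdf9 was the 3rd of 59 in the vector libraries and the 16th in the PTMA libraries. The number of members at 1 FPKM or more was 20, 20 and 18 in the vector libraries, against 7, 9 and 11 in the PTMA libraries. Members without a single count numbered 6, 5 and 7 in the vector libraries, against 16, 11 and 19 in the PTMA libraries.

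**Figure D4:**
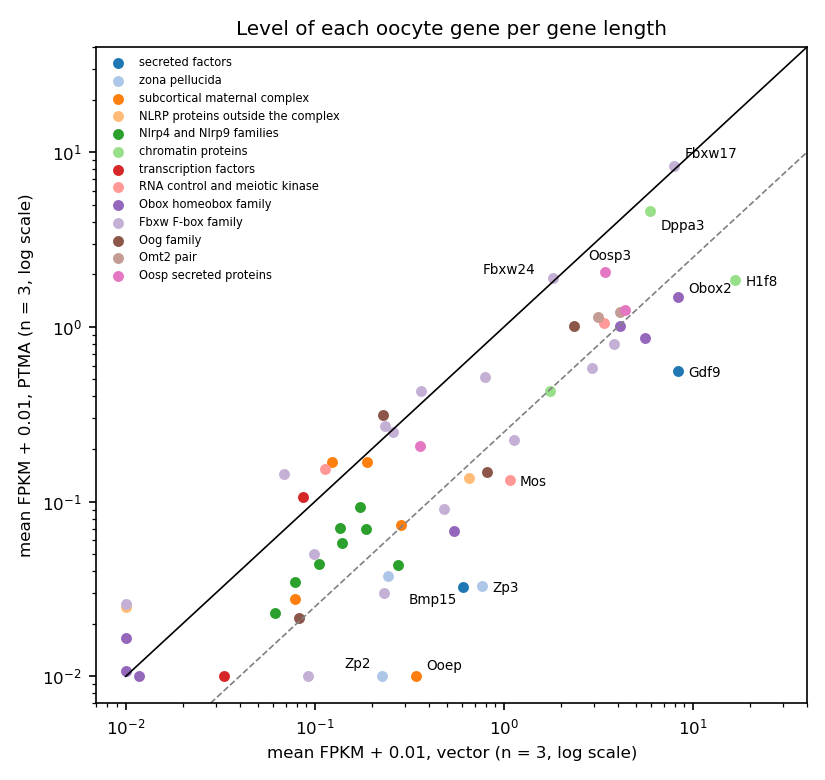
Mean level of each of the 59 genes per gene length in the vector libraries (horizontal) and the PTMA libraries (vertical), as FPKM + 0.01 on log axes, coloured by role, with a solid line at equality and a dashed line where PTMA is 4-fold lower. Fbxw17 and Fbxw24 sit on the solid line, H1f8, Gdf9, Bmp15 and Zp3 lie below the dashed line, and Zp2 and Ooep lie on the floor.

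The make-up of the sum also differed between libraries. Across the 59 genes, the rank order of FPKM was similar among the vector libraries (Spearman's rho 0.923 to 0.94), less so among the PTMA libraries (0.679 to 0.806), and 0.709 to 0.767 between the groups. These are descriptions over genes, which are not independent, and the PTMA libraries hold fewer counts of them. The secreted factors made up 16.8%, 7.26% and 14.2% of the sum without Fbxw17 in vector 1 to 3, against 2.08%, 3.77% and 2.90% in PTMA 1 to 3, so their share was lower in each PTMA library. Dppa3 made up 3.68%, 3.19% and 3.68% against 6.30%, 13.6% and 9.78%, a share that was higher in each PTMA library. Each PTMA library was led by other genes: Btg4, Oog3 and Obox2 in PTMA 1, Dppa3, Fbxw24 and Fbxw28 in PTMA 2, and Oosp3, Obox5 and Dppa3 in PTMA 3. The F-box genes without Fbxw17 made up 37.0% of the sum in PTMA 2, against 12.0% to 18.8% in the other libraries. The Oosp genes made up 17.6% in PTMA 3, against 1.87% to 6.25% elsewhere. Among the 54 genes with at least 10 counts in a library, 20 were highest of the 6 libraries in vector 2, including all 3 zona genes, the 4 Obox genes, H1f8 and Npm2.

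Genes with no shared sequence and genes with over 5% of windows shared had like medians. Of the 20 genes that shared no 75-base window with another transcript, 19 were tested, 16 had a negative log2 fold change and the median was -2.01. Of the 19 genes with over 5% of windows shared, 14 were tested, 10 had a negative one and the median was -1.89. Counted over tested and untested genes, vector libraries lay above in 10 of the 20 and in 11 of the 19. Over all 16592 genes tested, 53.2% had a negative log2 fold change and 5.38% had the vector libraries above. The genes between these classes, 20 with up to 5% of windows shared, are not summarised here. The part of shared reads in the difference was not tested. In 16 of the 59, the gene overlaps another gene on the chromosome.

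Oocyte genes outside the 59 were described from 4 further lists of regulators, RNA-control genes, meiotic maturation genes and other oocyte-enriched genes, 70 genes with a row and 50 tested. Of the 50, 38 had a negative log2 fold change, where 53.2% of all genes tested did, and 12 a positive one, with a median of -0.46. The vector libraries lay above in 19 (5.38% of all genes tested) and the PTMA libraries in 2 (5.39%). The edgeR test called 0 of them (0.0121% of all genes tested). DESeq2 called 4, all lower, where it called 0.211% of all genes lower. At an unadjusted edgeR p under 0.05 there were 18 lower, where 2.72% of all genes tested were. At the same threshold 1 was higher, where 319 of all 16592 genes tested were. Some of these genes are abundant in T cells as well, such as Trim28, a co-repressor, at 305 ± 14.8 against 332 ± 21.9 CPM, and Uhrf1, a DNA methylation cofactor, at 342 ± 32.0 against 377 ± 21.9 CPM (SD, n = 3 per group). Over the 50 the log2 fold change ran from -4.37 to 1.57. The next 4 genes are among those with the lowest p in their lists, so they show the far end of that range. Bcl2l10, an oocyte member of the BCL2 family, had 979, 868 and 1105 counts in the vector libraries, against 369, 320 and 67 in the PTMA libraries. Rfpl4, an oocyte RING finger protein, had 446, 1052 and 410 against 233, 75 and 193, with the high value in vector 2 seen for the Obox and zona genes. Dazl, a germ cell RNA-binding protein, had 162, 141 and 147 against 43, 43 and 4, and Pabpn1l, an oocyte poly(A)-binding protein, had 33, 47 and 83 against 0, 8 and 0. In these 4 genes no PTMA library reached a vector library. The lists were unlike each other. The regulators had 6 of 11 tested genes with a negative log2 fold change (median -0.10), the RNA storage and translation genes 9 of 10 (median -0.16), the meiotic maturation genes 8 of 11 (median -0.47) and the other oocyte-enriched genes 15 of 18 (median -1.44).

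**Figure D5:**
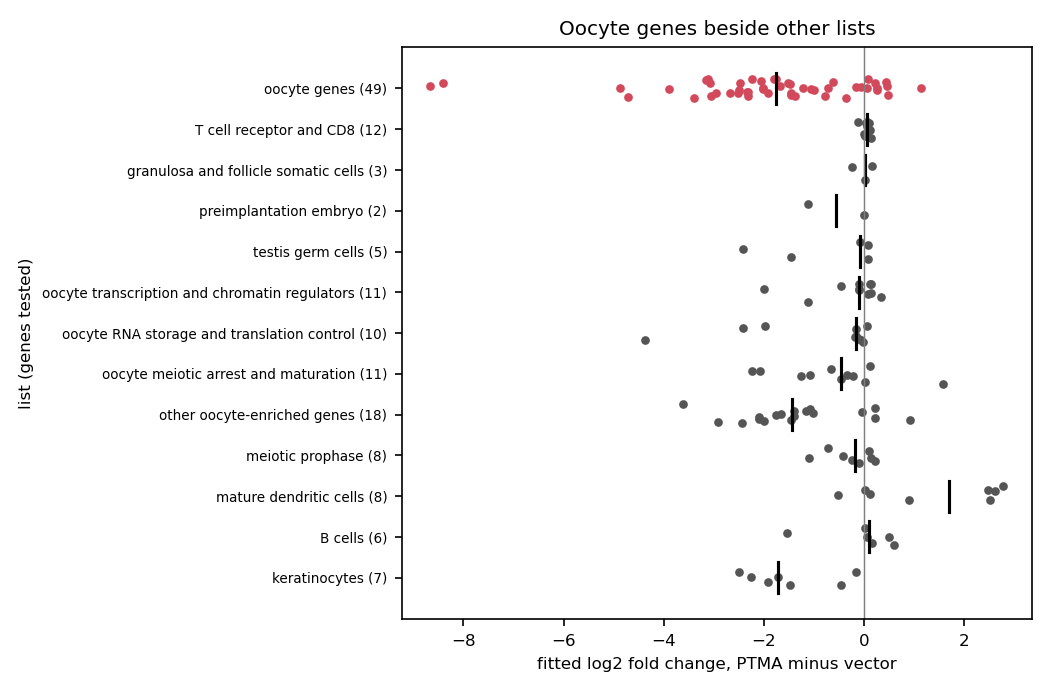
Fitted log2 fold change (PTMA minus vector) of each tested gene of the oocyte genes (red) and of 12 other lists (grey), with the number of genes tested in parentheses and a black bar at the median. The oocyte genes have a median of -1.75, the keratinocyte genes -1.72 and the other oocyte-enriched genes -1.44, while the other 3 oocyte lists lie between -0.47 and -0.10 and the T cell receptor and CD8 list at 0.06; the leftmost red points are Ooep and Zp2, whose fitted values depend on the prior count because their PTMA counts are 0.

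Genes of the cells around an oocyte were mostly too rare to compare between the groups. Of 20 granulosa and follicle genes, 8 had no row in the table, among them Amh, Foxl2 and Nr5a1, and were not analysed here. Of the 12 with a row, 9 had a count of 0 in some library and only 3 were tested. Leaving out Serpine2, which T cells transcribed at 163 ± 10.8 and 165 ± 13.4 CPM (SD, n = 3 per group), the other 11 summed to 2.16, 2.18 and 2.30 CPM in the vector libraries, against 2.40, 1.64 and 1.60 CPM in the PTMA libraries. Most of that sum was Star, a cholesterol transport protein of steroid-making cells, with 88, 98 and 107 counts against 103, 79 and 84, in groups that overlap. Of 21 preimplantation embryo genes, 17 had no row, and 2 were tested, with log2 fold changes of -1.12 (Pou5f1) and 0.005 (Eif1a). Meiotic prophase genes had a median log2 fold change of -0.18, with 5 of 8 negative. Of the 5 testis germ cell genes tested, 3 had a negative log2 fold change, with a median of -0.07. The lowest, -2.43, was that of Dazl. Hspa1l had 22, 0 and 44 counts in the vector libraries, against 0, 21 and 5 in the PTMA libraries. Tnp2 had 89, 69 and 80 counts against 94, 82 and 96.

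Genes of other cell types also differed between libraries. Of 11 mature dendritic cell genes with a row, 10 stood under 20 CPM, and these summed to 13.4, 12.4 and 11.1 CPM in the vector libraries, against 19.6, 24.6 and 20.8 CPM in the PTMA libraries, with 2 of them at 0 in every vector library. The PTMA libraries lay above in 3 of the 11 (Cacnb3, Fscn1 and Ccl22). All 3 were among the 8 tested, and over all genes tested the share was 5.39%. Ccl22, a chemokine of mature dendritic cells, had 117, 55 and 44 counts in the vector libraries, against 389, 550 and 385 in the PTMA libraries. Others did not differ in this way. Zbtb46 went the other way, with 153, 163 and 137 counts against 160, 60 and 118, in groups that overlap. Xcr1, the largest part of the sum, overlapped at 7.58 ± 0.602 against 8.26 ± 1.92 CPM. Ccr7, above 20 CPM, overlapped at 343 ± 15.2 against 349 ± 21.5 CPM (SD, n = 3 per group). The 9 keratinocyte genes with a row summed to 7.98, 28.7 and 37.9 CPM in the vector libraries, against 19.1, 7.95 and 7.79 CPM in the PTMA libraries. Of the 7 tested, 7 had a negative log2 fold change, where 53.2% of all genes tested did, and 5 one of -1 or lower, where 3.07% did. Their median was -1.72, close to that of the oocyte genes, and the groups overlapped in all 9 genes. The part of these other cells in the oocyte gene difference was not tested.

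The genes whose level over the 6 libraries was most like the summed oocyte genes were found among 688 genes outside the 59 that differed at least 2-fold in group means, so they share its group difference by construction. By Pearson's r of log2(CPM + 0.5) over the 6 libraries, the 10 nearest were Pkd2l2, Klrb1b, Ugt1a10, Kpna7, Slc6a12, Gm5128, Gm17751, Gm7903, Mip and A730082K24Rik, with r from 0.975 to 0.997. Kpna7, an oocyte and embryo importin, had 39, 51 and 51 counts in the vector libraries, against 0, 4 and 8 in the PTMA libraries. Ugt1a10, a glucuronosyltransferase, had 134, 160 and 173 counts against 32, 48 and 38.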

How the data were processed

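The authors deposited 1 table of 27480 genes with raw counts and FPKM (per gene length and library size) for each of the 6 libraries, per the file headers. Bowtie 0.12.2, HISAT2 2.0, StringTie 1.3.0 and the build mm8 are listed, without their roles, per the submitters' processing notes. The table's coordinates are those of GRCm38: of 27405 identifiers found in GENCODE M21, 99.7% share a start or end. The extraction protocol in the labels speaks of an adipose type.

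Counts were fitted with edgeR 4.0.16 (R 4.3.3; TMM, filterByExpr with a minimum count of 10, quasi-likelihood test, Benjamini-Hochberg threshold 0.05) with group as the only term, leaving 16592 genes. The procedure was tested on simulated data with the same dispersion for all genes and changes only in genes above a low level. It does not show how the procedure handles rare or more variable genes, as many of the members are. Alternatives were other scalings, no filter, DESeq2 1.42.0, limma 3.58.1 on log2(FPKM + 1) with a mean of at least 1 FPKM, a replicate block and leaving out each library. Members, lists and named-gene rules were chosen with earlier results of these data known. Named members have at least 10 counts in a library or are the 5 most counted of a family. From the other lists, genes with the most counts or lowest p were eligible to be named. Fold changes between group means are of CPM.

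Shared sequence is the percentage of a gene's 75-base windows of GENCODE M21 transcripts found in another gene. Same-numbered replicates did not deviate together, so replicate numbers were not used as pairs.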

Additional observations from a re-analysis of the deposited data

How the results depend on the processing

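Counts under 10 per library limit the zona and complex genes, and 6 libraries limit every value. The number of genes called was 2 and became 0 with no filter, 42 with DESeq2 and 1 with limma on FPKM, and ranged from 0 to 3 when single libraries were left out, with 0 without vector 1, without PTMA 1 or without PTMA 3. Gdf9 had a negative log2 fold change in all 12 alternatives and was called in 7, with adjusted p (edgeR, limma or DESeq2) from 1.8e-27 to 0.443. The median log2 fold change of the oocyte genes, -1.75, was -1.18 with limma on FPKM, where 17 were tested, and ran from -1.92 to -1.54 when single libraries were left out. The log2 ratio of their sums, -1.34, was -1.92 without Fbxw17, -1.55 with FPKM in place of CPM and -1.43 to -1.25 when single libraries were left out. Of the 49 tested genes, 41 kept their sign in every alternative run, and Fbxw15, Fbxw16, Fbxw20, Fbxw24, Nobox, Oog4, Tle6 and Zar1 did not. Of the 30 genes with the vector libraries above, leaving out a single library moved the ratio of means by over 1.5 times in 17. With a replicate block, 0 genes were called and the median was -2.06. The correlation of same-numbered libraries, in their deviations from the group means, was -0.12, -0.16 and -0.12. These 3 values give no sign of pairing by number but cannot exclude it. The cause of these shifts was not tested.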
